A study of Mus musculus with 30 samples.

Results

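Olig1 and Olig2, neighbouring genes on mouse chromosome 16, encode regulators of the oligodendrocyte and motor neuron lineages that bind DNA through a basic helix-loop-helix domain, and both are inactivated in part of the samples described here. Next to them lie 10 genes, Ifnar2, Il10rb, Ifnar1, Ifngr2, Tmem50b, Gart, Son, Cryzl1, Itsn1 and Atp5o. These genes were chosen for their position, with earlier results of these data known. Every probe set to which the platform annotation gives 1 of these symbols was taken, which gave 36 of 45101 probe sets and 10 of 18193 named genes. Counted along the protein-coding genes of the RefSeq annotation (assembly GRCm38.p6), they lie at positions 2 to 14 from Olig2, on the Olig1 side. The question put to them was whether their transcripts differ with the targeted allele itself, in cultured cells and in tissue. A targeted allele can bring with it a deletion, an inserted cassette and sequence of the strain in which it was made, and any of these may touch genes next to the target. Arrays of cells given an Olig2 virus serve as a control, because the virus leaves the allele as it is.

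RNA from 30 mouse samples was hybridised to Affymetrix arrays. Of these, 22 came from neurospheres, floating cultures of neural progenitor cells, started from E14.5 ganglionic eminences. Every neurosphere line lacked both copies of Ink4a/Arf, a locus of cell cycle inhibitors, and carried a retrovirus for EGFRvIII, a constantly active form of the EGF receptor found in human glioma, with puromycin selection. Untransduced null (Olig1/2-/-) lines gave 6 arrays, heterozygous (Olig1/2+/-) lines 3 and wild-type (Olig1/2+/+) lines 3. The heterozygous and wild-type lines together are called Olig-expressing. Lines given an Olig2 retrovirus or a GFP retrovirus, both with blasticidin selection, gave 3 null arrays with each virus and 2 heterozygous arrays with each. The other 8 arrays came from E18.5 embryos, with forebrain and spinal cord of 2 null and 2 heterozygous embryos. The sample labels call the tissue genotype Olig2 -/- and Olig2 +/-, whereas the series design text calls it Olig1/2, and they name neither Ink4a/Arf nor EGFRvIII for the tissues. Mice were of a mixed Swiss and C57BL/6J background. Cells were harvested at passages that the labels do not give for each array, and the labels do not say that each line came from an embryo of its own, so p-values measure the spread between these samples.

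The 10 genes include 4 cytokine receptor chains and 6 genes of other roles. Ifnar1 and Ifnar2 form the type I interferon receptor, Ifngr2 is the signalling chain of the interferon gamma receptor, and Il10rb is the chain shared by the receptors for IL-10, IL-22 and the lambda interferons. These 4 belong to the class II cytokine receptors, which signal through Janus kinases and STAT factors. Gart encodes an enzyme that carries several steps of purine synthesis, Son a protein of nuclear speckles needed for splicing, Itsn1 a scaffold of endocytosis called intersectin, and Atp5o the OSCP subunit in the stalk of the mitochondrial ATP synthase. Tmem50b encodes a membrane protein of the endoplasmic reticulum and Cryzl1 a protein related to quinone reductases.

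The 300 bases around the start of Atp5o, which gave the smallest p-value of the 10 genes between null and Olig-expressing neurospheres, and of Itsn1, which gave the only call with the Olig2 virus, are shown first. Both come from RefSeq (GRCm38.p6) and run from 250 bases before the annotated start to 50 after it. Capitals mark matches to the E-box CANNTG, the class of motif bound by basic helix-loop-helix factors.
Atp5o, chr16:91931581-91931880, minus strand: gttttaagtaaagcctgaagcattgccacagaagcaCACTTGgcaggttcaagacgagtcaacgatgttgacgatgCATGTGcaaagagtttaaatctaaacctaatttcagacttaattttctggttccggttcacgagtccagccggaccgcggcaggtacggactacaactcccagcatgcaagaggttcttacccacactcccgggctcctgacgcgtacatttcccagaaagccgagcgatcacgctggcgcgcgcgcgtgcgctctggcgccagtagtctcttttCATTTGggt
Itsn1, chr16:91729121-91729420, plus strand: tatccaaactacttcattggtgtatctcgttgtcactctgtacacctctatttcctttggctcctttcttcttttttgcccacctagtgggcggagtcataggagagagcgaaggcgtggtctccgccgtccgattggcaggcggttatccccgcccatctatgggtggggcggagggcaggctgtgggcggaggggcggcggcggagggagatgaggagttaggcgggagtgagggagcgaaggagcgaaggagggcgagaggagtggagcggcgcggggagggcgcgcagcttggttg
CANNTG reads the same on both strands. The Atp5o window held 3 matches and the Itsn1 window 0, and 72.3% of 32851 promoter windows of this length hold at least 1. CAGCTG and CAGATG, both special cases of CANNTG that were searched on both strands, were in neither window, against 16.3% and 17.2% of all windows. Ifnar2 and Tmem50b had 1 CANNTG match each, and the windows of Ifnar1, Ifngr2, Gart, Son and Cryzl1 had 0. A match says only that these letters are present. Atp5o had 22 CpG in its window and Itsn1 23, against a median of 7 over all windows. Gart and Son, and likewise Cryzl1 and Itsn1, start next to each other on opposite strands.

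The probe sets of the targeted genes followed the genotype labels in direction. Olig1 signal averaged 8068 ± 1018 in null neurospheres and 24715 ± 3713 in Olig-expressing neurospheres (SD, n = 6 each), and no null array overlapped them. Olig2 signal averaged 8302 ± 2120 and 14260 ± 2161 in the same groups. Its highest null value, 11577, passed its lowest Olig-expressing value, 11500. Olig2 signal in null neurospheres was thus far above that in null tissue, where it was 178.7 and 108.9 in forebrain and 58.5 and 23.8 in spinal cord. In heterozygous embryos it was 269.2 and 519.3 in forebrain and 335.1 and 736 in spinal cord, and the genotype difference missed the threshold in both tissues (limma adjusted p = 0.711 and 0.0587). Olig1 read 1685.7 and 1889.1 in null forebrain, against 2187.4 and 1786.6 in heterozygous forebrain, which overlap. In spinal cord Olig1 read 2007 and 1878 in null embryos, against 3901.1 and 4068.1 in heterozygous embryos. Which part of each gene the allele removes is not stated in the labels, so a probe set outside that part would not check the genotype. With the Olig2 virus the Olig2 probe set was not higher than with GFP: it read 4450, 5697 and 10011 in null lines labelled Olig2 virus, against 10275, 8279 and 8950 in null lines with GFP. Whether the probe set can see the viral transcript is not known here, so these arrays are called by their label. Neural progenitor markers were at or above the array median for 5 or 6 of 6 genes on every array. The 5 forebrain and 5 spinal cord markers were at or above it in full in their own tissue, and neurosphere arrays had at most 2 of 5 of each.

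In untransduced neurospheres, Il10rb and Atp5o were lower in null lines, and no probe set of the other 8 genes passed the test. The comparison tested 30 of the 36 probe sets, covering all 10 genes, and called 3 lower and 0 higher. Null and Olig-expressing arrays did not overlap for 2 of the 30, beside 3.74% of all probe sets. Over all 25621 probe sets tested, 6.61% were called, 3.52% higher and 3.09% lower. Probe sets were tested with limma on log2(signal + 16), with Benjamini-Hochberg adjustment over all of them and a call at an adjusted p under 0.05. A probe set entered if it reached the array median on at least 3 of the 12 arrays. The 6 left out were 2 of Ifnar2, 1 of Il10rb and 3 of Itsn1. Because a probe set can enter through the group in which it is high, the count of calls is a description. In bulk RNA, fewer cells of a type and less RNA per cell cannot be told apart, and the number of arrays limits the precision of every value below.

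Il10rb, the shared cytokine receptor chain, had a low signal in every neurosphere group. Its probe set 1419455_at read between 45.6 and 118.9 in the 6 null lines, with a median of 78.45. It read 122.1, 234.9 and 122.2 in heterozygous lines and 203.5, 294.3 and 273.2 in wild-type lines. No null line reached the lowest Olig-expressing line, although the gap between 118.9 and 122.1 was small. The difference of null from Olig-expressing lines was -1.20 on the log2 scale (SE 0.279, limma adjusted p = 0.0174), or 43.4% of the Olig-expressing level. Against wild-type lines it was -1.54 (SE 0.342, adjusted p = 0.0155). Against heterozygous lines it was -0.86 (SE 0.342, adjusted p = 0.255), which was no call. Group means were 79.8 ± 27.03 in null (n = 6), 160 ± 65.1 in heterozygous (n = 3) and 257 ± 47.5 in wild-type lines (SD, n = 3), and heterozygous against wild-type was no call either (-0.68, adjusted p = 0.792). The probe set reached the array median on 0 of 6 null arrays, 1 of 3 heterozygous and 3 of 3 wild-type arrays, so it entered the test through the groups in which it was high. Without the filter it was still called (adjusted p = 0.0217). The call against Olig-expressing lines was lost without wild-type line 3 (-1.15, adjusted p = 0.0514) or heterozygous line 15 (-1.06, adjusted p = 0.0556), and the call against wild-type lines without wild-type line 3 (-1.44, adjusted p = 0.0877) or line 20 (-1.49, adjusted p = 0.0674). The other Il10rb probe set, 1429959_at, was not tested and did not follow it, averaging 82.7 ± 20.4 in null and 59.2 ± 28.8 in Olig-expressing lines (SD, n = 6 each). The 10 marker genes of white blood cells summed to between 1362 and 1866 in null, 1238 and 1604 in heterozygous and 1288 and 1621 in wild-type lines. At most 4 of the 10 reached the array median on any of these arrays. Of these markers 3 were tested and 0 called, and the part of white blood cells in the Il10rb values was not tested.

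Atp5o, the ATP synthase subunit at the far end of the set, was lower in null lines with little spread between lines. Probe set 1416278_a_at read between 7085 and 8505 in the 6 null lines, with a median of 7805. It read 10682, 10106 and 10977 in heterozygous lines and 12317, 10958 and 12454 in wild-type lines. Null lines stood below all Olig-expressing lines without overlap. The log2 difference of null from Olig-expressing lines was -0.53 (SE 0.0675, limma adjusted p = 0.000249), or 69.5% of the Olig-expressing level. It was -0.61 against wild-type lines (SE 0.0827, adjusted p = 0.000472) and -0.44 against heterozygous lines (SE 0.0827, adjusted p = 0.0096). The last call was lost without heterozygous line 11 (-0.43, adjusted p = 0.0524) and without the variance trend (adjusted p = 0.061). Heterozygous against wild-type lines gave -0.17 (SE 0.0955, adjusted p = 0.785), no call, with a 95% interval of -0.37 to 0.04. Probe set 1437164_x_at, of a kind whose probes can match other transcripts, gave -0.50 against Olig-expressing lines (adjusted p = 0.0497), and leaving out any of 10 of the 12 arrays ended its call, with values from -0.60 to -0.42. Of 7 other settings 5 ended it too: a pseudocount of 1, no filter, 75th percentile scaling, centring on chromosome 16 and no variance trend (adjusted p 0.0512 to 0.0969). Both Atp5o probe sets moved together over the 30 arrays (r = 0.78, a description, since the arrays share tissues and lines).

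**Figure D1:**
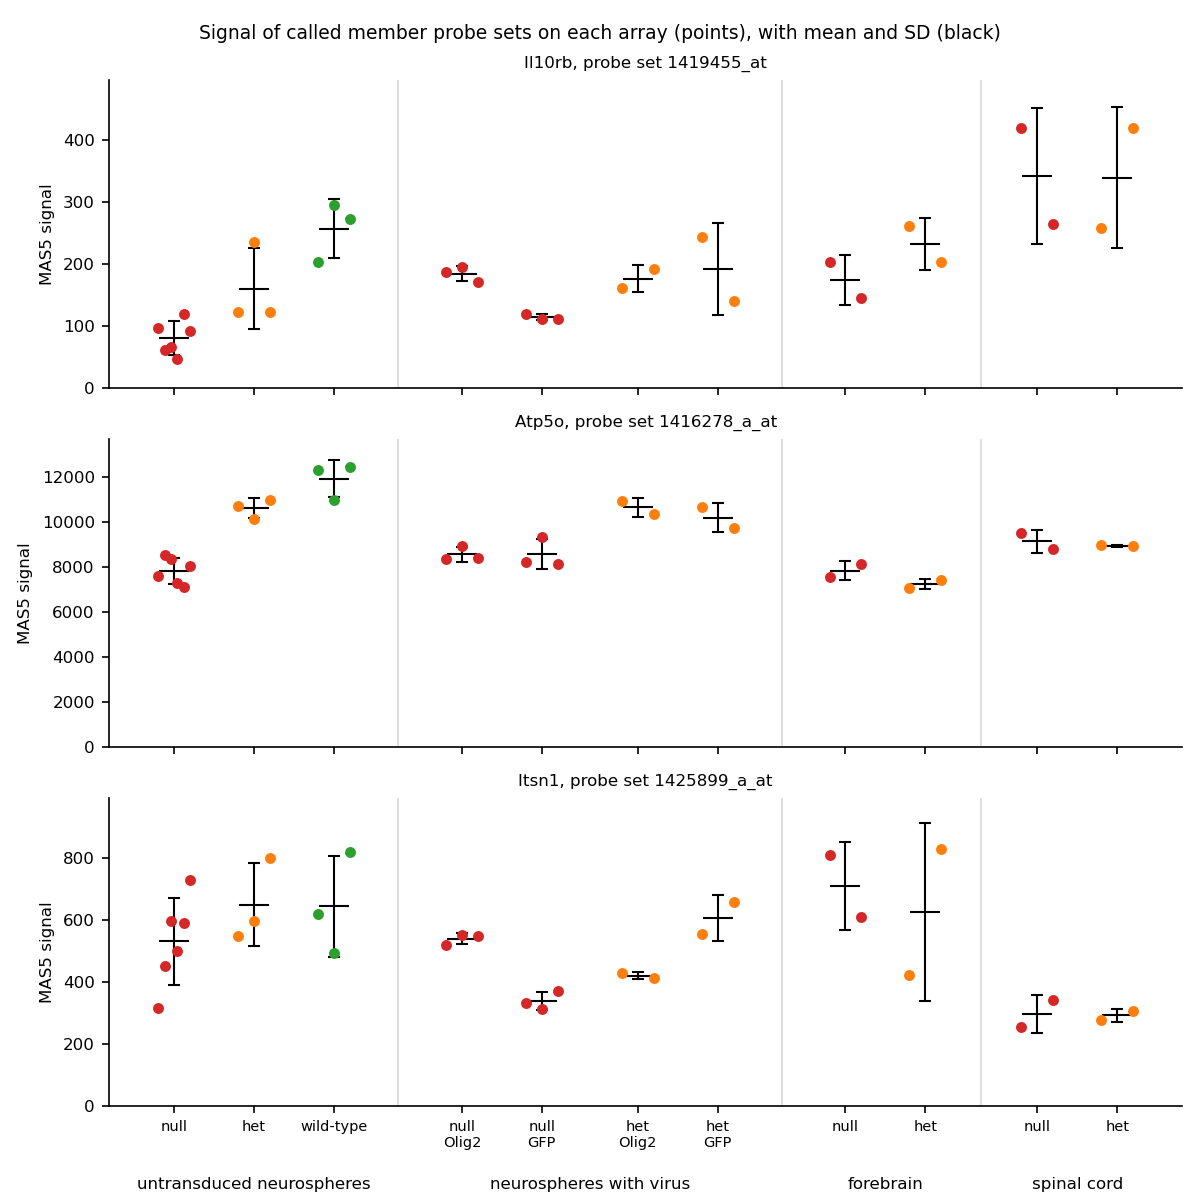
MAS5 signal (vertical axis, from 0) of Il10rb 1419455_at, Atp5o 1416278_a_at and Itsn1 1425899_a_at on each of 30 arrays (points), with the group mean and SD in black and groups along the horizontal axis. Untransduced null lines lie below heterozygous and wild-type lines for Il10rb and Atp5o, while both genotypes overlap in spinal cord for all 3 probe sets.

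Of the remaining receptor chains, both Ifnar1 and both Ifngr2 probe sets and 1 of the 3 Ifnar2 probe sets were tested in the same fit, and 0 of these 5 were called. Ifnar1 1449026_at averaged 771 ± 125 in null and 808 ± 98.2 in Olig-expressing lines, and Ifnar2 1451462_a_at averaged 617 ± 79.4 and 632 ± 118 in the same groups (SD, n = 6 each). Ifngr2 1423558_at averaged 400 ± 63.4 in null and 401 ± 93.5 in Olig-expressing lines. For these 3 probe sets the means differed by less than the SD between lines. The other Ifnar2 probe sets did not pass the filter, so their lack of a call is a lack of a test. Both averaged lower in null lines by more than either group's SD, while the arrays overlapped. Ifnar2 1427691_a_at read 16 to 84.1 in null lines (45 ± 29.02) and 44.3 to 209.9 in Olig-expressing lines (121 ± 64.6, SD, n = 6 each). Ifnar2 1440169_x_at, whose probes can match other transcripts, read 13.1 to 138.7 in null lines (77.1 ± 45.7) and 119.3 to 213.5 in Olig-expressing lines (158 ± 36.1). Neither reached the array median on any of the 6 null arrays, and each did so on 2 of the 6 Olig-expressing arrays.

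Tmem50b, Gart, Son, Cryzl1 and Itsn1 were also without a call. Tmem50b averaged 1456 ± 131 in null and 1609 ± 384 in Olig-expressing lines (SD, n = 6 each). Son 1420952_at averaged 4816 ± 472 in null and 4630 ± 1077 in Olig-expressing lines, and the 7 Son probe sets all overlapped between the groups. Gart had 4 probe sets with means of 422 to 679 in null lines and 389 to 713 in Olig-expressing lines. Nearest to a call were Cryzl1 1451473_a_at, higher in value (0.28, SE 0.0883, limma adjusted p = 0.0764), and Itsn1 1452338_s_at, lower in value (-0.37, SE 0.116, adjusted p = 0.0785). Cryzl1 1451473_a_at averaged 1434 ± 111 in null and 1179 ± 117 in Olig-expressing lines. With each array centred on chromosome 16 genes far from the locus it was called (0.32, adjusted p = 0.042), and it was called without null line 14 (0.32, adjusted p = 0.0467). Across the 30 tested probe sets the log2 difference ran from -1.20 to 0.36, with a median of -0.05 beside -0.03 over all probe sets. In 27 of the 30, the 95% interval lay within 1 log2 unit of 0.

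Dose of the working alleles was looked at in the 3 untransduced genotypes. Heterozygous against wild-type lines called 0 of the 30 probe sets by limma, with 3 at an unadjusted p under 0.05. Over all probe sets this comparison called 2, or 0.00781%, and 6.69% had an unadjusted p under 0.05. Son 1455634_at read 1125, 1009 and 1483 in heterozygous lines, against 835.4, 605.5 and 966.5 in wild-type lines (0.58, adjusted p = 0.569). The distance of heterozygous lines from the midpoint of null and wild-type was no call for any of the 30, against 0.113% of all probe sets. For Il10rb it was 0.09 (95% interval -0.61 to 0.79) and for Atp5o 1416278_a_at 0.14 (-0.03 to 0.31). Against wild-type lines alone, null lines gave 2 calls of 30, beside 5.45% of all probe sets, and against heterozygous lines 1 of 30, beside 2.68%.

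**Figure D2:**
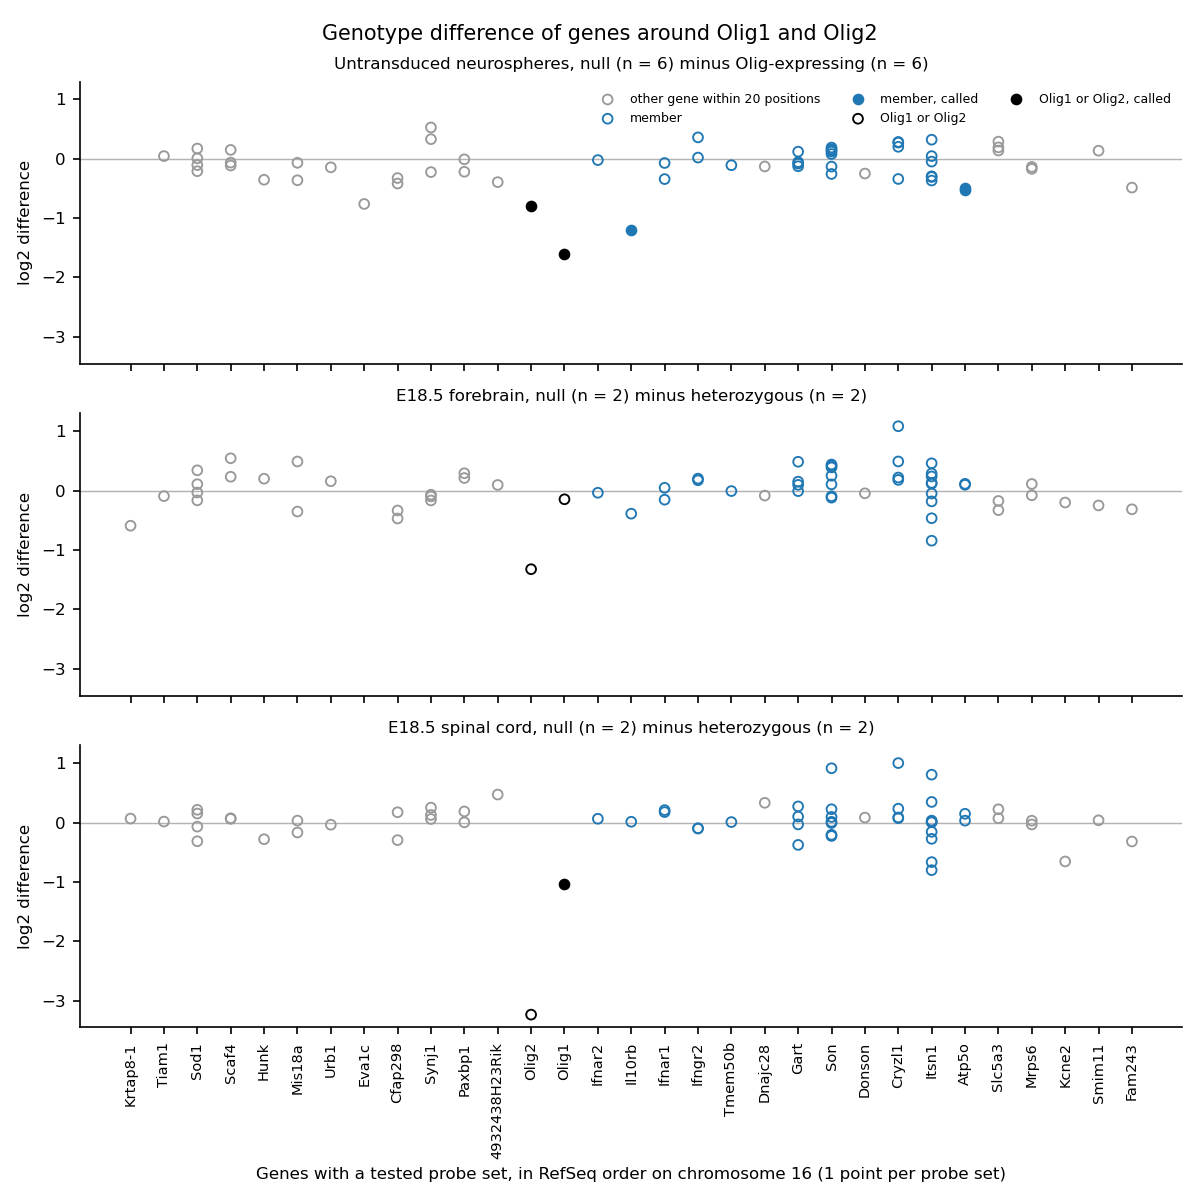
Log2 difference (vertical axis) of null from Olig-expressing neurospheres (top), null from heterozygous forebrain (middle) and null from heterozygous spinal cord (bottom) for each tested probe set, with genes along the horizontal axis in RefSeq order on chromosome 16. Filled points passed the test: Olig1, Olig2, Il10rb and Atp5o in neurospheres, and Olig1 in spinal cord.

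In the gene order the called genes were not neighbours. Il10rb lies 3 positions from Olig2, between Ifnar2 and Ifnar1, and Atp5o lies 14 positions away, at the far end of the set. Ifnar2 and the members between Il10rb and Atp5o were without a call. Ifnar2 1427691_a_at and 1440169_x_at did not pass the filter, however, so they were not tested. Both averaged lower in null than in Olig-expressing lines (45 against 121, and 77.1 against 158), with overlapping arrays. A further 24 protein-coding genes within 20 positions of Olig2 have 49 probe sets, of which 30 for 17 genes were tested, and 0 were called between null and Olig-expressing lines by limma (0 also against wild-type and against heterozygous lines). Their median log2 difference was -0.12, beside -0.03 over all probe sets. It was -0.13 both against wild-type and against heterozygous lines, again beside -0.03 over all. Further away on chromosome 16, 693 probe sets were tested, with 22 called higher and 28 lower (7.22%). The median deviation of those far genes lay between -0.06 and 0.08 log2 units on each of the 30 arrays.

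No member was called by genotype in E18.5 tissue. In forebrain 33 of the 36 probe sets were tested and 0 were called, with 1 at an unadjusted p under 0.05, and over all 25925 probe sets 0.0154% were called and 6.62% had an unadjusted p under 0.05. In spinal cord 0 of 33 were called, with 2 at an unadjusted p under 0.05, beside 0.081% called and 5.89% unadjusted over all. Atp5o 1416278_a_at read 7531 and 8110 in null forebrain, against 7060 and 7388 in heterozygous forebrain. In spinal cord it read 9492 and 8774 in null, against 8954 and 8906 in heterozygous embryos. Its null to heterozygous difference was 0.11 in forebrain (95% interval -0.06 to 0.29) and 0.03 in spinal cord (-0.14 to 0.20). The lower bounds lie above the -0.44 estimated in neurospheres, which leaves out the error of that estimate. Il10rb 1419455_at read 203.1 and 145.5 in null forebrain, against 261.7 and 202.5 in heterozygous forebrain (-0.39, 95% interval -1.13 to 0.36). In spinal cord it read 419.1 and 263.6 in null, against 258.3 and 419.7 in heterozygous embryos (0.01, -0.73 to 0.76). The forebrain interval of Il10rb holds both 0 and the -0.86 estimated in neurospheres, while the lower bound in spinal cord lies above that estimate. The error of the -0.86 is left out here too, and a direct test of the difference is given below. With 2 embryos a group, values that do not overlap are common: 12 of 33 member probe sets in forebrain and 10 of 33 in spinal cord did not, beside 37% and 35% of all probe sets. White blood cell markers summed to 8334 and 8603 in null spinal cord, against 5938 and 6387 in heterozygous spinal cord, and their part in the tissue values was not tested. The genotype difference in spinal cord minus that in forebrain was no call for any of the 33, beside 0.00386% of all probe sets.

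Whether the genotype difference itself differs between neurospheres and tissue was tested in a comparison added after the data were seen. For Atp5o 1416278_a_at, null minus heterozygous was 0.55 log2 units lower in neurospheres than in forebrain (-0.55, SE 0.125, limma adjusted p = 0.0667), which missed the threshold. It passed under quantile normalization (-0.52, adjusted p = 0.0267), with 1 probe set per gene (adjusted p = 0.0492) and without null line 13 (-0.58, adjusted p = 0.0496). Against spinal cord the difference was -0.47 (SE 0.125, adjusted p = 0.133). For Il10rb the differences were -0.47 (adjusted p = 0.891) against forebrain and -0.88 (adjusted p = 0.725) against spinal cord. Of all probe sets 0.377% were called against forebrain and 0.434% against spinal cord, and 0 of 35 member probe sets in each. Of 22533 probe sets tested in both sources, 0 were called in the same direction in neurospheres and forebrain, and 1, Olig1 itself, in neurospheres and spinal cord. The Olig1 call in spinal cord (-1.03, adjusted p = 0.0119) was lost without any 1 of the 4 spinal cord arrays (-1.08 to -0.98, adjusted p 0.0689 to 0.127) and without the variance trend (adjusted p = 0.271).

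The virus arrays repeat the genotype comparison in derivatives of some of the same lines. With GFP virus, null lines against heterozygous lines gave 0 calls among 32 member probe sets by limma, with 3 at an unadjusted p under 0.05, beside 1.43% called and 14.7% unadjusted over all 26735 probe sets. Atp5o 1416278_a_at read 8222, 9323 and 8116 in null lines with GFP, against 10637 and 9732 in heterozygous lines with GFP (-0.25, SE 0.11, adjusted p = 0.312). With Olig2 virus it read 8359, 8930 and 8369 in null lines, against 10939 and 10342 in heterozygous lines (-0.31, SE 0.11, adjusted p = 0.684). Null lines were lower without overlap under both viruses, neither being a call. The comparison under Olig2 virus was added after the data were seen, and it called 0 of 32 member probe sets, 2 of them at an unadjusted p under 0.05, beside 0.0337% called and 6.22% unadjusted over all. Null and heterozygous arrays did not overlap for 7 of the 32 member probe sets with GFP virus and 13 with Olig2 virus, beside 33% and 22.7% of all probe sets. Il10rb read 119.3, 111.3 and 110.5 in null lines with GFP, against 243.7 and 139.3 in heterozygous lines with GFP (-0.63, adjusted p = 0.411). With Olig2 virus it read 187.3, 194.3 and 170.9 in null lines, against 160.2 and 191.4 in heterozygous lines, and these overlap (0.06, adjusted p = 0.991).

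As a control, Olig2 virus was set against GFP virus within null lines, where the targeted allele is the same in both arms. Of 32 member probe sets 1 rose and 0 fell, beside 4.29% and 3.36% of all probe sets, or 7.65% in all. Itsn1 1425899_a_at read 519.2, 551.6 and 546.7 in null lines with Olig2 virus, against 330.3, 312.0 and 370.9 in the same lines with GFP (0.65, SE 0.163, limma adjusted p = 0.0333). With the line as a replicate block the adjusted p was 0.0556, and the call was also lost without the filter (0.0567), under quantile normalization (0.45, adjusted p = 0.107), under 75th percentile scaling (0.54, adjusted p = 0.0617) and without any 1 of the 6 null virus arrays (0.60 to 0.72). None of the other 6 tested Itsn1 probe sets was called, with values from -0.33 to 1.69. In heterozygous lines the same probe set read 428.0 and 412.5 with Olig2 virus, against 553.8 and 658.3 with GFP (-0.51, adjusted p = 1), opposite in sign. The difference between the genotypes was 1.16 (SE 0.258, adjusted p = 0.153), no call. That difference was called for 0 of the 32 member probe sets and 0.0524% of all probe sets.

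Between Olig2 and GFP virus Atp5o gave values near 0, while Il10rb was higher in value in null lines. Atp5o 1416278_a_at differed by 0.00 log2 units between Olig2 and GFP virus in null lines (95% interval -0.21 to 0.22) and by 0.06 in heterozygous lines (-0.20 to 0.33). In null lines Il10rb differed by 0.62 (SE 0.299, limma adjusted p = 0.21), and each of the 3 lines moved up, by 0.59, 0.72 and 0.56. Of the 32 member probe sets 5 had an unadjusted p under 0.05 by limma in null lines, beside 25.9% of all probe sets. The 2 virus groups did not overlap for Il10rb, which is a description. In heterozygous lines it differed by -0.07 (95% interval -0.87 to 0.73). Null GFP arrays also stood apart in RNA quality and scale. Their Gapdh 3'/5' log2 ratios ran from -0.09 to 0.43, against -0.25 to -0.20 with Olig2 virus, their median signal from 128.9 to 151.6, against 173.6 to 191.2, and their summed white blood cell markers from 990.5 to 1045, against 1290 to 1592. The RNA of line 13 with GFP had an A260/A280 ratio of 2.83. Over all probe sets Olig2 minus GFP had a median of 0.11 in null lines, and -0.00 after quantile normalization, and Itsn1 differed by 0.54 under 75th percentile scaling, where the median of all was -0.01. The part of these values in the Itsn1 and Il10rb differences was not tested. In heterozygous lines 0 of 32 member probe sets were called by limma, with 3 at an unadjusted p under 0.05, and 0% of all probe sets, 3.77% of them unadjusted. The widest of these was Ifnar2 1427691_a_at, with 297.3 and 246.2 under Olig2 virus, against 34.9 and 33.8 under GFP (2.51, SE 0.837, adjusted p = 1). It reached the array median on those 2 Olig2 virus arrays and on 0 of the other 8 virus arrays, so it entered the fit only through the group in which it was high. Ifnar2 1451462_a_at differed by 0.22.

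**Figure D3:**
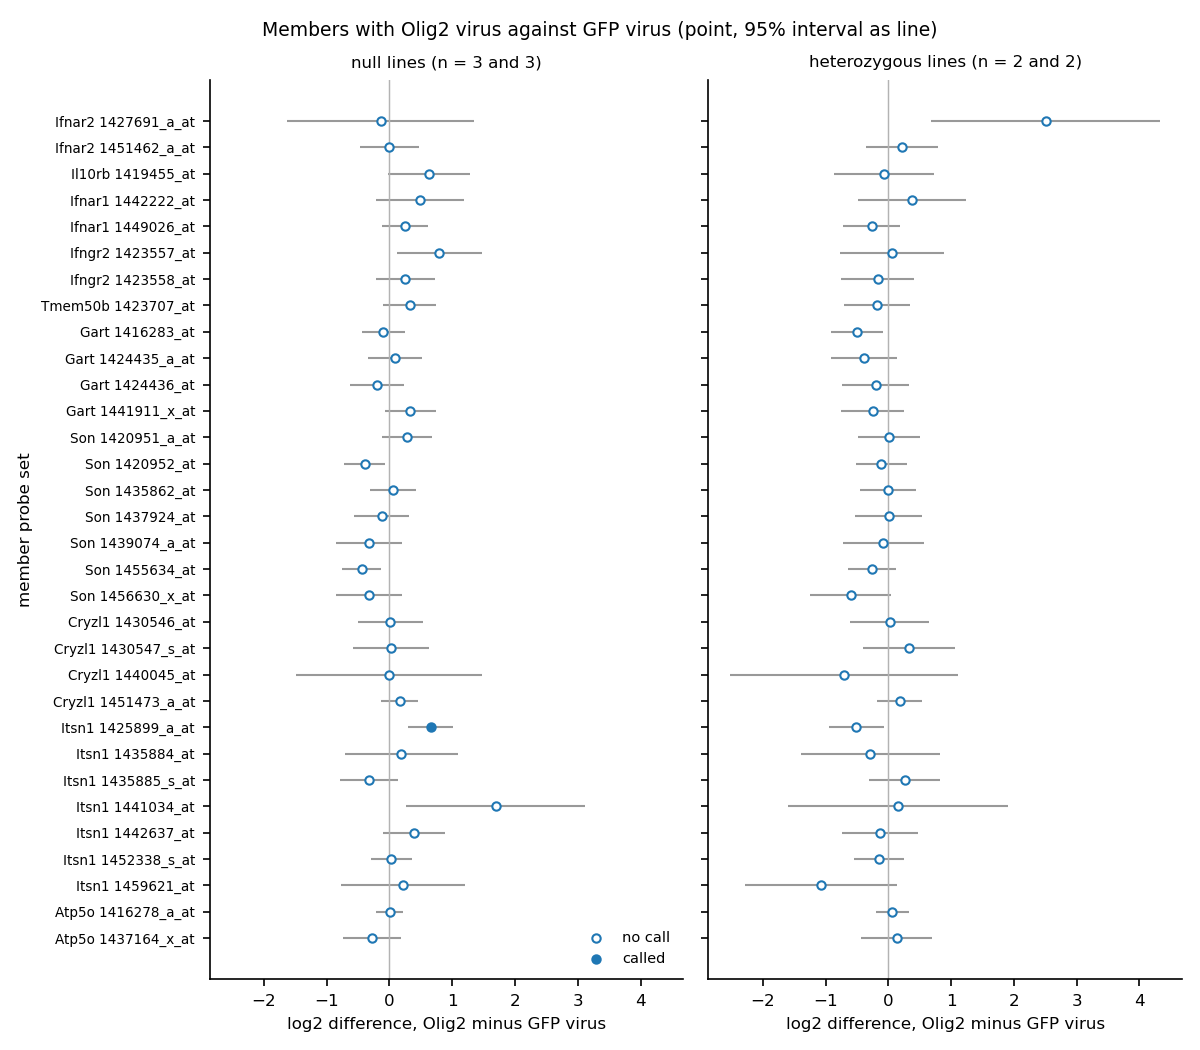
Log2 difference of Olig2 minus GFP virus (horizontal axis) for the 32 tested member probe sets (1 to a line) in null and heterozygous neurosphere lines, with the 95% interval as a bar. Itsn1 1425899_a_at in null lines is the single filled point, at 0.65, and Atp5o 1416278_a_at lies at 0.00.

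Among the neighbouring genes that are not members, 2 of 31 tested probe sets were called in null lines between Olig2 and GFP virus, beside 7.65% of all probe sets. In heterozygous lines 0 of 31 were called, beside 0% of all. Cfap298 1424315_at, whose product is a cilia and flagella associated protein, rose by 0.74 (SE 0.194, limma adjusted p = 0.0393). Sod1 1459976_s_at, of superoxide dismutase, fell by 0.46 (SE 0.122, adjusted p = 0.0397). Both calls were lost without the filter, without the variance trend and under quantile normalization (0.53 and -0.31), and with most single arrays left out (0.62 to 0.83 and -0.53 to -0.43). The other 3 tested Sod1 probe sets were not called.

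A few members differed in level between tissue and neurospheres, among them Itsn1. Itsn1 1436579_s_at read 709.6 to 1035 on the 8 tissue arrays, with a median of 934.5, against 2.1 to 144.7 on the 22 neurosphere arrays, with a median of 50.2. Itsn1 1421192_a_at read 144.8 to 354.8 in tissue, against 14.8 to 65.6 in neurospheres. Itsn1 1452338_s_at read 862 to 1283 in tissue, against 605 to 1091 in neurospheres, which overlap. Itsn1 is known to give a short transcript in many tissues and a long one in neurons, but which of them each probe set reads is not annotated in the files. Neuronal markers summed to 45279 to 56925 on tissue arrays and to 379.8 to 1045 on neurosphere arrays. Ifngr2 1423557_at was also higher in tissue without overlap (448.6 to 951.6, against 98.6 to 445.9), and Ifnar2 1451462_a_at was lower (299.9 to 396.6, against 402.2 to 758.5). The remaining 32 of 36 member probe sets overlapped, and over all probe sets 8.96% were higher and 7.9% lower in tissue without overlap. Neither tissue-high Itsn1 probe set was called by genotype in forebrain or spinal cord.

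Atp5o belongs to a complex whose other subunits are encoded elsewhere in the genome, and some of those fell too. Of 14 other ATP synthase subunit genes, 5 fell and 0 rose between null and Olig-expressing neurospheres, with 5 of 24 probe sets called lower, beside 3.09% of all probe sets. Of the 24, 23 were below 0, beside 54.7% of all probe sets. The median was -0.23, beside -0.03 over all probe sets, and values ran from -0.40 to 0.04. Atp5b on chromosome 10 fell by 0.31 (adjusted p = 0.00212), Atp5c1 on chromosome 2 by 0.40 (adjusted p = 0.00573) and Atp5a1 on chromosome 18 by 0.32 (adjusted p = 0.00849) in the limma fit. Atp5j, also on chromosome 16 but outside the 20 positions, fell by 0.30 (adjusted p = 0.0167). Both Atp5o probe sets were lower in value than any of these. Against untransduced heterozygous lines alone, 1 of the 14 genes fell and 0 rose in null lines. Of 24 probe sets 23 were below 0 there, with a median of -0.18, beside -0.03 over all. With GFP virus, null against heterozygous lines called 0 of the 14 genes. In that comparison 14 of 25 probe sets were below 0, with a median of -0.03, beside -0.09 over all. Under Olig2 virus, null against heterozygous lines also called 0 of the 14 genes. There 22 of 25 probe sets were below 0, with a median of -0.25, beside 0.01 over all. In forebrain and spinal cord 0 of 14 genes were called by limma, with medians of 0.04 and -0.02. Between Olig2 and GFP virus in null lines, 1 probe set of Atp5c1 rose (0.77, limma adjusted p = 0.0347) and 0 fell. The median of 25 probe sets was -0.25, beside 0.11 over all. Both comparisons that use null GFP arrays rest on arrays that stood apart in RNA quality and scale, as given above. The part of this in the subunit values was not tested.

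**Figure D4:**
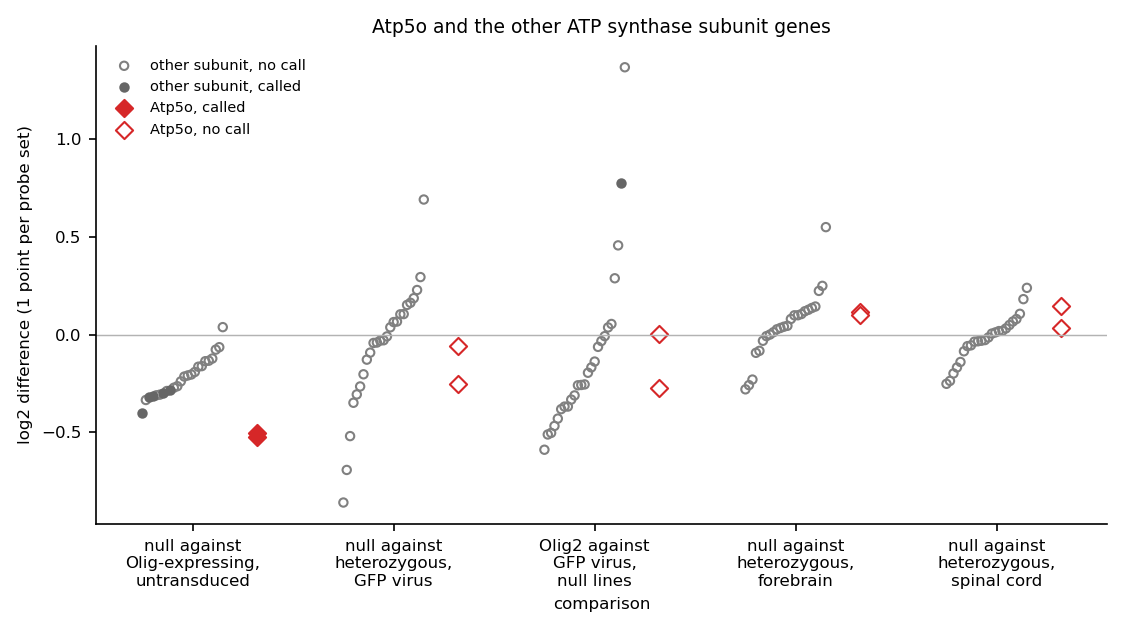
Log2 difference (vertical axis) of each probe set of 14 other ATP synthase subunit genes (circles) and of the Atp5o probe sets (diamonds) in 5 comparisons (horizontal axis), filled where called. Between null and Olig-expressing neurospheres 23 of 24 circles lie below 0, and both Atp5o diamonds lie below all of them.

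The genes whose log2 signal followed Atp5o 1416278_a_at most closely over the 30 arrays, of 18820 candidates, were Uqcrc2 on chromosome 7 (r = 0.907), Sdhb on chromosome 4 (r = 0.883) and Idh3a on chromosome 9 (r = 0.881). The arrays share lines, embryos and tissues, so these correlations are descriptions. Null minus Olig-expressing neurospheres was -0.36 for Uqcrc2, -0.34 for Sdhb and -0.86 for Idh3a. All 3 were picked for following Atp5o on arrays that include these neurospheres. Their lower values in null lines thus come with that choice and are no separate result.

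Lists of genes that work with the other members were read between null and Olig-expressing neurospheres, where 6.61% of all probe sets were called. Called were 1 of 18 probe sets for receptor partners, 1 of 26 for interferon-stimulated genes, 1 of 21 for purine synthesis, 2 of 51 for speckle and splicing genes and 4 of 58 for endocytosis partners, and these counts are descriptions. Of 10 tested partners of the class II receptors, 1 rose and 0 fell, namely Jak1, the kinase that several of these receptors share (0.33, limma adjusted p = 0.0404). Of 17 interferon-stimulated genes, 1 fell and 0 rose. It was H2-K1, a class I histocompatibility gene on chromosome 17 (-0.96, adjusted p = 0.000156), read by a probe set whose probes can match related genes. The median of the 26 probe sets in this list was -0.29, beside -0.03 over all, and 22 were below 0, beside 54.7% of all probe sets. Below 0 were also 44 of 51 probe sets for speckle and splicing genes and 17 of 21 for purine synthesis. Receptor partners had 4 of 18 below 0 and endocytosis partners 17 of 58. Of 12 purine synthesis genes, 1 fell, Impdh1, of the guanine branch (-0.63, adjusted p = 0.00124), and 0 rose. Of 15 nuclear speckle and splicing genes, 2 fell, Srsf10 (-0.51, adjusted p = 0.0214) and Srsf1 (-0.42, adjusted p = 0.0438), and 0 rose. Of 20 endocytosis partners of intersectin, 3 rose and 0 fell. They were Arhgap31, a protein that intersectin binds (1.11, adjusted p = 0.000447), Epn2, an epsin (0.35, adjusted p = 0.0211), and Eps15, a clathrin adaptor (0.64, adjusted p = 0.0468). Arhgap31 lies on chromosome 16, outside the 20 positions, and fell by 1.20 with Olig2 virus in null lines (adjusted p = 0.0254).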

How the data were processed

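The deposited table held an intensity for each of 45101 probe sets on 30 arrays. Per the submitters' processing notes, the authors made these intensity values with MAS5, with the version not given in the sources used here. Each array's trimmed mean was about 500, and all arrays have 1 hybridisation date, so no batch was fitted. Signals were analysed as log2(signal + 16) with limma 3.58.1 (R 4.3.3, the package data.table at 1.17.8), in separate fits for untransduced neurospheres, virus neurospheres and tissues, with empirical Bayes moderation and a variance trend. A probe set was tested if it reached its array's median on at least the number of arrays in the smallest group, which is 3 in untransduced neurospheres and 2 elsewhere. The 64 control probe sets were left out. P-values were adjusted by the Benjamini-Hochberg method over all probe sets of a fit. Fold changes and percentages are on the log2(signal + 16) scale, which understates changes of low signals. Figures were drawn with matplotlib 3.10.9.

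Of all probe sets, 34958 had 1 gene symbol in the platform annotation, 932 had several and 9211 had none; the 36 member probe sets matched RefSeq symbols. The named genes were the 10 members with every probe set, Olig1 and Olig2, up to 4 called genes of each partner list by smallest p, called genes within 20 positions of Olig2, and the 3 genes most correlated with the member probe set of smallest p. Members and lists were chosen with earlier results of these data known. The test of the genotype effect between neurospheres and tissue, and null against heterozygous lines with Olig2 virus, were added after the data were seen. Virus arrays that share a line number, and tissue arrays that share an embryo number, come from the same line or embryo per their titles, and their deviations from the group means correlated at 0.041, 0.080 and 0.033 for null lines 12, 13 and 14, at 0.132 for heterozygous lines and at 0.037 and 0.045 for embryos. The alternatives were pseudocounts of 1 and 64, no filter, quantile normalization, 75th percentile scaling, centring on chromosome 16, 1 probe set per gene, no variance trend, the replicate block and each array left out. The fit was tested on simulated data.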

Additional observations from a re-analysis of the deposited data

Results flagged for a closer look

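Among 30 member probe sets tested in the 6 untransduced null lines, 1 had a line far from the rest. Cryzl1 1430547_s_at read 95.4 in null line 24, against 289.5 to 454.2 in the other null lines, and the gap took up a share of 0.701 of the whole range. About 1 in 20 groups would show such a gap by chance. In the same line Cryzl1 1430546_at was also the lowest of the null lines, with 295.4 against 374.4 to 499.9 in the others. Cryzl1 1440045_at and 1451473_a_at were lowest in null line 14.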

How the results depend on the processing

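Of the member genes called in each comparison, counts stayed within 1.5 times of those reported except as follows. Null against heterozygous neurospheres had 1 member gene called, and 0 without the variance trend. With GFP virus, null against heterozygous lines had 0, and 1 with a pseudocount of 64 (Itsn1). Olig2 against GFP virus in null lines had 1, and 0 without the filter, under quantile normalization, with 1 probe set per gene and with the replicate block, and 2 when centred on chromosome 16 (Itsn1 and Son). The effect difference between neurospheres and forebrain had 0, and 1 under quantile normalization or with 1 probe set per gene (Atp5o). The replicate block changed no other member call. Leaving out 1 array at a time gave 1 to 3 genes for null against Olig-expressing and against wild-type neurospheres, and 0 to 1 for null against heterozygous neurospheres, Olig2 virus in null lines and both differences between neurospheres and tissue. For neurospheres minus spinal cord, Son 1420951_a_at gave -0.67 (adjusted p = 0.862) and was called without heterozygous spinal cord of embryo 4 (-1.94, adjusted p = 0.0164), while without embryo 3 it gave 0.59 (adjusted p = 0.804); each leaves 1 array in that arm (41.4 or 315), assumed to vary like the other groups. No called member value changed sign under any alternative run. Over all probe sets, totals moved by over 1.5 times as follows. With 1 probe set per gene there were 1000 calls, against 1693, for null against Olig-expressing, 806, against 1396, for null against wild-type, 422, against 687, for null against heterozygous, 212, against 381, with GFP virus, 982, against 2046, for Olig2 virus in null lines, 3, against 9, with Olig2 virus, and 77, against 131, for neurospheres minus spinal cord. Without the variance trend there were 109 with GFP virus, 925 for Olig2 virus in null lines, 1, against 0, in heterozygous lines, 10, against 29, for the midpoint, 0, against 4, in forebrain, 7, against 21, in spinal cord, 4 with Olig2 virus, and 51, against 114, and 84 for neurospheres minus forebrain and minus spinal cord. Heterozygous against wild-type had 2, and 0 to 4 over the alternatives. The difference of the Olig2 virus effect had 14, and 0 to 27, with 7 under the replicate block. The difference between tissues had 1, and 0 to 4, with 0 under the replicate block. Null against heterozygous lines with Olig2 virus had 5 without the filter. The replicate block could not be fitted to null against heterozygous lines, since each line has 1 genotype.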
